A study of Mus musculus with 12 samples.

Results

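The 45 genes described here encode the enzymes and regulators with which a mouse cell copies its DNA in S phase. They were chosen by symbol from the 55376 genes of the count table, with earlier results of these data known. All 45 were found and passed the filter on low counts that left 11994 genes for testing. RNA was read in 12 libraries of cultured bone marrow cells sorted as c-Kit+, Sca-1+ and Lin-, a fraction rich in stem and progenitor cells. The medium was RPMI with SCF at 100 ng/ml for every culture, together with IL-3 and IL-6, 20 ng/ml of each, and all cells carried a retroviral MSCV vector selected with geneticin and a pLKO.1-puro shRNA vector. The 4 groups of 3 libraries were cells with the empty MSCV vector and a control shRNA (empty vector), cells with NUP98-NSD1 and the control shRNA (fusion control), and cells with NUP98-NSD1 and either shNizp1#1 or shNizp1#2. NUP98-NSD1 joins a nucleoporin to a histone H3 lysine 36 methyltransferase and occurs in acute myeloid leukaemia, and Nizp1 is a zinc finger protein that binds NSD1. The fusion was made from the viral vector and not from the cells' own genes, and neither strain, age nor the animals behind the cells are given. Titles carry a replicate number from 1 to 3, and the series was run as 3 independent experiments. Libraries with the same number deviated together, and so the number was treated as a pairing.

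DNA replication starts when the origin recognition complex, Cdc6 and Cdt1 load rings of Mcm2 to Mcm7 onto DNA before S phase, a step called licensing. Cdc45, the GINS complex and Mcm10 then turn these rings into working helicases, and primase and the DNA polymerases copy the strands with the help of the sliding clamp PCNA. In dividing cells most of these genes are transcribed in late G1 and S phase under E2F factors, which are freed from RB proteins when cyclin E and CDK2 act, so their summed RNA is often read as a sign of how many cells are in cycle. In bulk RNA, fewer cells in S phase and less RNA per cell cannot be told apart.

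Total counts ran from 3586538 to 6842589 per library, and 3 counts were worth between 0.417 and 0.837 CPM (counts scaled to the TMM-adjusted total of the tested genes). Zkscan17, the gene of Nizp1, was at 49.4 to 68.2 CPM in the 6 control-shRNA libraries and at 17.6 to 35 in the 6 targeting-shRNA libraries, with no overlap. Nsd1, whose reads include those of the fusion's NSD1 portion, was at 139 to 230 CPM with the empty vector and 598 to 966 in the 9 fusion libraries. Of the mast cell markers, Cpa3 was at 19341 to 30645 CPM and Hdc, the lowest, at 27.3 to 223. Kit was at 1930 to 3105 CPM and Ly6a, the gene of Sca-1, at 23.8 to 277. The 7 T and NK cell markers summed to 0.44 to 6.52 CPM, with Cd3g and Cd8a at 0 and Nkg7 the highest at up to 5.41. The 10 neutrophil markers summed to 198 to 450 CPM in the libraries numbered 1, 856 to 1633 in those numbered 2 and 2.17 to 9.58 in those numbered 3. The 9 monocyte markers summed to 838 to 1517, 1997 to 3637 and 86.4 to 1127 CPM, in the same order, and the 10 mast cell markers to 50501 to 64132, 47520 to 59057 and 39478 to 46314. Cpa3 was the largest part of each mast cell sum, and the single mast cell markers did not all follow it. Fcer1a and Ms4a2 were higher in number 3 than in number 2 in every group. Cma1, Tpsb2, Tpsab1, Hdc, Kit and Gata2 were lower in every group, and Cpa3 and Mcpt4 differed in direction between groups.

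All 45 genes were expressed in every library. Single values ran from 5.26 CPM (Gins1 and Pole2) to 385 CPM (Rfc2), and the members held between 0.232% and 0.531% of the counts of a library. Per length, as RPKM (CPM per kilobase of gene length, the mean over 12 libraries ± SD), Pcna, the sliding clamp, was at 160 ± 24.8. It was followed by Mcm3, a subunit of the helicase ring, at 86.2 ± 22.8 and Rrm2, the S phase subunit of ribonucleotide reductase, at 72.1 ± 20.6. Rfc2, a clamp loader subunit, was at 67.8 ± 6.95 RPKM, and Rrm1, the large reductase subunit, at 60.2 ± 14.2. Orc1, the largest subunit of the origin recognition complex, was at 4.14 ± 1.10 RPKM and Gins3 at 4.29 ± 1.25. The median member was at 24.7 RPKM. Pcna stood above Mcm3 by more than their SDs, and below it each neighbour in this order differed from the next by less than the larger of their SDs.

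No member was called in any of the 4 comparisons that the design sets up. This held in edgeR's quasi-likelihood test with 1 mean per group (0 of 45 called, and 0 with an unadjusted p under 0.05, in each comparison) and with a term for the replicate number added (the block fit, 0 of 45 called in each). Among all tested genes, calls without the block made up 0.00834% for the fusion against the empty vector, 0.0% for shNizp1#1, 0.00834% for shNizp1#2 and 0.00834% between the shRNAs. With the block, 0.25% were higher and 0.025% lower with the fusion (0.275% in either direction), 0.509% and 1.12% with shNizp1#1 (1.63%), 0.142% and 0.075% with shNizp1#2 (0.217%), and 1.78% and 0.584% for shNizp1#2 against shNizp1#1 (2.37%). In the block fit the unadjusted p was under 0.05 for 0 members with the fusion, 2 with shNizp1#1, 0 with shNizp1#2 and 1 between the shRNAs, and DESeq2 and limma-voom called none. Groups did not separate for any member in any of the 4 comparisons: 0 of 45 had all 3 libraries of one group above or below all 3 of the other, where 3.68% of tested genes were higher and 3.74% lower without overlap for the fusion, 3.96% and 4.42% for shNizp1#1, 3.48% and 3.04% for shNizp1#2, and 4.87% and 4.34% between the shRNAs.

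**Figure D1:**
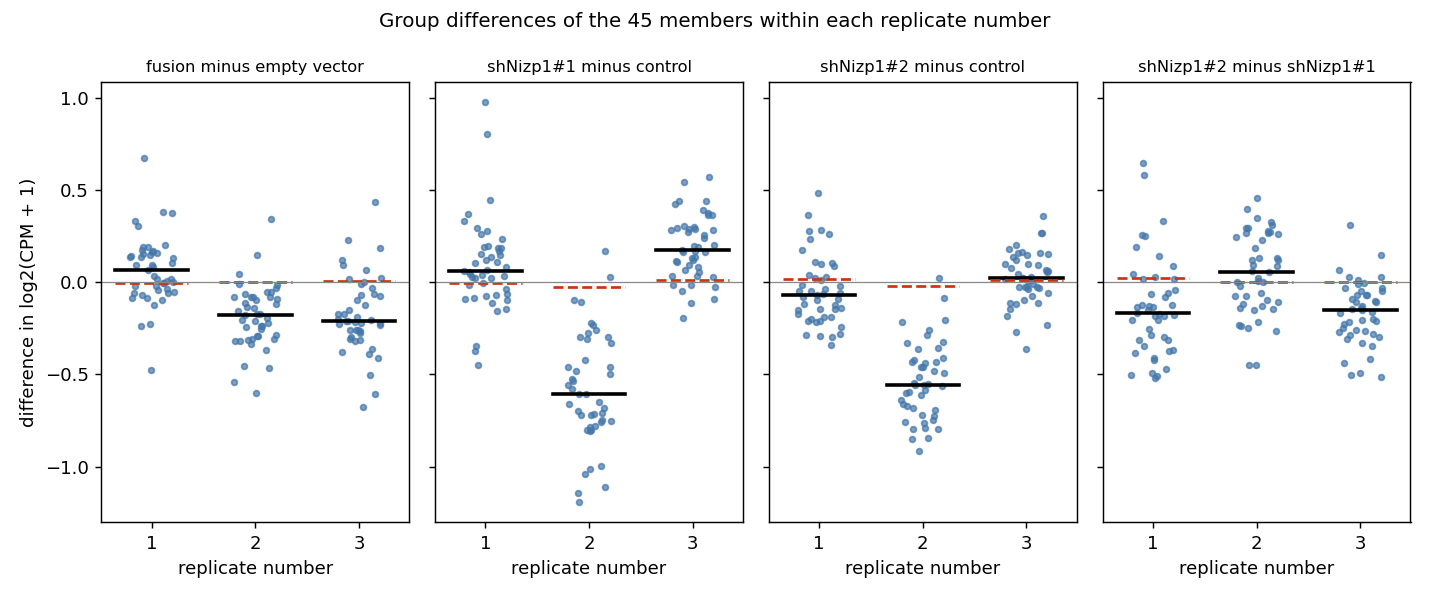
Difference in log2(CPM + 1) of each of the 45 members (points, spread sideways for view) between 2 groups of the same replicate number, with the members' median (solid line) and the median of all tested genes (dashed line). The members' medians lie at -0.61 and -0.55 for shNizp1#1 and shNizp1#2 against the control shRNA in number 2, and between -0.067 and 0.18 in numbers 1 and 3.

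With NUP98-NSD1, the median blocked log2 fold change of the members was -0.10 against -0.00094 over all tested genes, with 37 members below 0. Within the numbers 1, 2 and 3 the median member differed by 0.064, -0.18 and -0.21 in log2(CPM + 1). Lower values in all 3 numbers were seen for 13 members, where 16.3% of all tested genes were lower in all 3. By the smallest p, the leading genes were E2f1 and E2f2, transcription activators of S phase genes, and Pola2, a subunit of DNA polymerase alpha. E2f1 was at 71.3, 50.2 and 91.9 CPM in the empty-vector libraries 1, 2 and 3 and at 68.5, 48.5 and 60.1 in the fusion controls. E2f2 was at 26.6, 33.6 and 42.6 CPM and at 26.3, 29.6 and 26.3. Both genes overlapped between the groups, and the largest gap lay in number 3 for each. In the block fit E2f1 stood at -0.24 in log2 (SE 0.12, adjusted p = 0.461), E2f2 at -0.31 (SE 0.18, adjusted p = 0.552) and Pola2 at -0.25 (SE 0.15, adjusted p = 0.573).

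With shNizp1#1 the median member was at -0.10, with 32 members below 0, and with shNizp1#2 at -0.20, with 44 below 0. The 2 comparisons share the fusion controls. Their medians by number were 0.059, -0.61 and 0.18 for shNizp1#1 and -0.067, -0.55 and 0.025 for shNizp1#2, with the lowest in number 2 for both. There 43 and 44 of the 45 members were lower than in the fusion control numbered 2, where 53.0% and 52.9% of all tested genes were lower. Without both shNizp1 libraries numbered 2 (chosen after seeing the data) the medians were 0.18 and 0.0066, and again 0 members were called. E2f1 had the smallest p with shNizp1#1: it was at 80.6, 54.7 and 89.6 CPM, higher than the fusion control in all 3 numbers, and stood at 0.33 in the block fit (SE 0.12, adjusted p = 0.230). Pole, the catalytic subunit of the leading-strand polymerase epsilon, was at 38.8, 49.8 and 53.2 CPM in the fusion controls and at 29.7, 21.2 and 46.4 with shNizp1#1, which gave -0.57 in log2 (SE 0.23, adjusted p = 0.322). Pcna was at 270, 212 and 276 CPM in the fusion controls and at 252, 169 and 271 with shNizp1#1 (-0.14 in log2, SE 0.089, adjusted p = 0.578). With no filter on low counts, the block fit called Pole, at the same -0.57.

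With shNizp1#2 the smallest p-values were those of Cdt1, the licensing factor, Mcm10, and Chaf1b, a subunit of the chromatin assembly factor that places histones on new DNA. Cdt1 was at 39.4, 37.5 and 47.7 CPM in the fusion controls and at 32.3, 28.0 and 40.5 with shNizp1#2, lower in each number, with overlapping groups. The log2 fold changes were -0.32 for Cdt1 (SE 0.16, adjusted p = 0.499), -0.40 for Mcm10 (SE 0.21, adjusted p = 0.522) and -0.29 for Chaf1b (SE 0.16, adjusted p = 0.522). Between the shRNAs the median member was at -0.10, with 37 below 0 for shNizp1#2 against shNizp1#1. E2f1 (-0.25, SE 0.11, adjusted p = 0.325), Pole2, the smaller partner of Pole in polymerase epsilon (-0.53, SE 0.25, adjusted p = 0.338), and Pole (0.45, SE 0.22, adjusted p = 0.393) led by p.

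The members differed more between the replicate numbers than between the groups. For the median member the group accounted for 11.1% of the sum of squares of log2(CPM + 1), the number for 64.2% and the rest for 24.6%, against 20.6%, 48.7% and 22.9% for the median tested gene. The number's share was above the group's share in 43 of 45 members. E2f2 (3.76% for the number, 39.3% for the group) and Pole (33.9% and 37.6%) were the exceptions, named after their values were seen. Across the 12 libraries the members moved alike: the median Pearson r over the 990 pairs of members was 0.87 (range 0.105 to 0.991), given as a description, since all pairs share libraries and scaling. The median r with the other members was 0.94 for Mcm6 and Rrm1, 0.68 for E2f1 and 0.45 for E2f2. The summed level of the members was 3817 to 4267 CPM in number 1, 2322 to 3823 in number 2 and 4499 to 5070 in number 3.

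**Figure D2:**
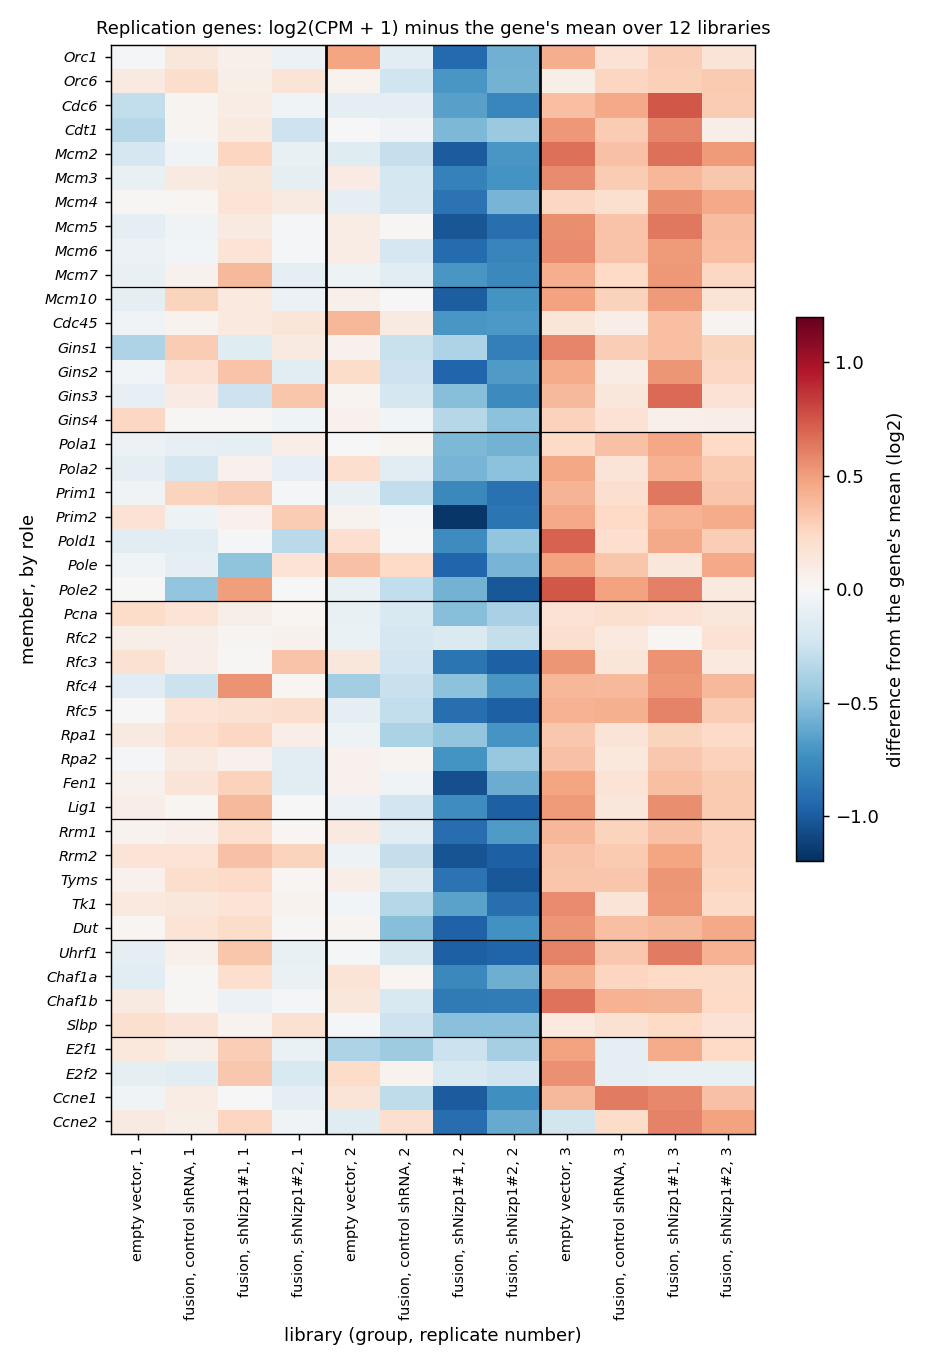
Log2(CPM + 1) of the 45 members in each of the 12 libraries minus the member's mean over the libraries, with members ordered by role (horizontal lines) and libraries by replicate number (vertical lines). The shNizp1 libraries numbered 2 are blue for all 45 members, with medians of -0.77 and -0.70, and the libraries numbered 3 are mostly red, with medians from 0.24 to 0.46.

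Between numbers 3 and 2, with the group in the model, 41 members rose and 0 fell, with a median log2 fold change of 0.76. Of all tested genes, 24.2% were called higher and 25.4% lower in this comparison (49.6% in either direction), with a median of 0.024. Number 3 was higher in all 4 groups for 41 members (28.7% of tested genes), and 36 members had all 4 libraries numbered 3 above all 4 numbered 2 (15.9%). Between numbers 2 and 1, 17 members fell and 0 rose, with a median of -0.44 (12.6% of tested genes called lower, 25.9% in either direction, median -0.036). Between numbers 3 and 1, 7 members rose and 0 fell, with a median of 0.29 (10.3% called higher, 26.2% in either direction, median -0.015). They were Cdc6, Cdt1, Mcm2, Pola2, Pold1, Chaf1b and Ccne1. All 45 members lay below 0 for number 2 against 1 and above 0 for the other 2 comparisons, which share libraries with it. Each number held 1 library per group, so these tests measure the spread among those libraries, not among repeats of a number. The neutrophil and monocyte markers were higher in number 2 than in number 3 in all 4 groups, the reverse of these 41 members, and the part of these cells in the differences was not tested.

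**Figure D3:**
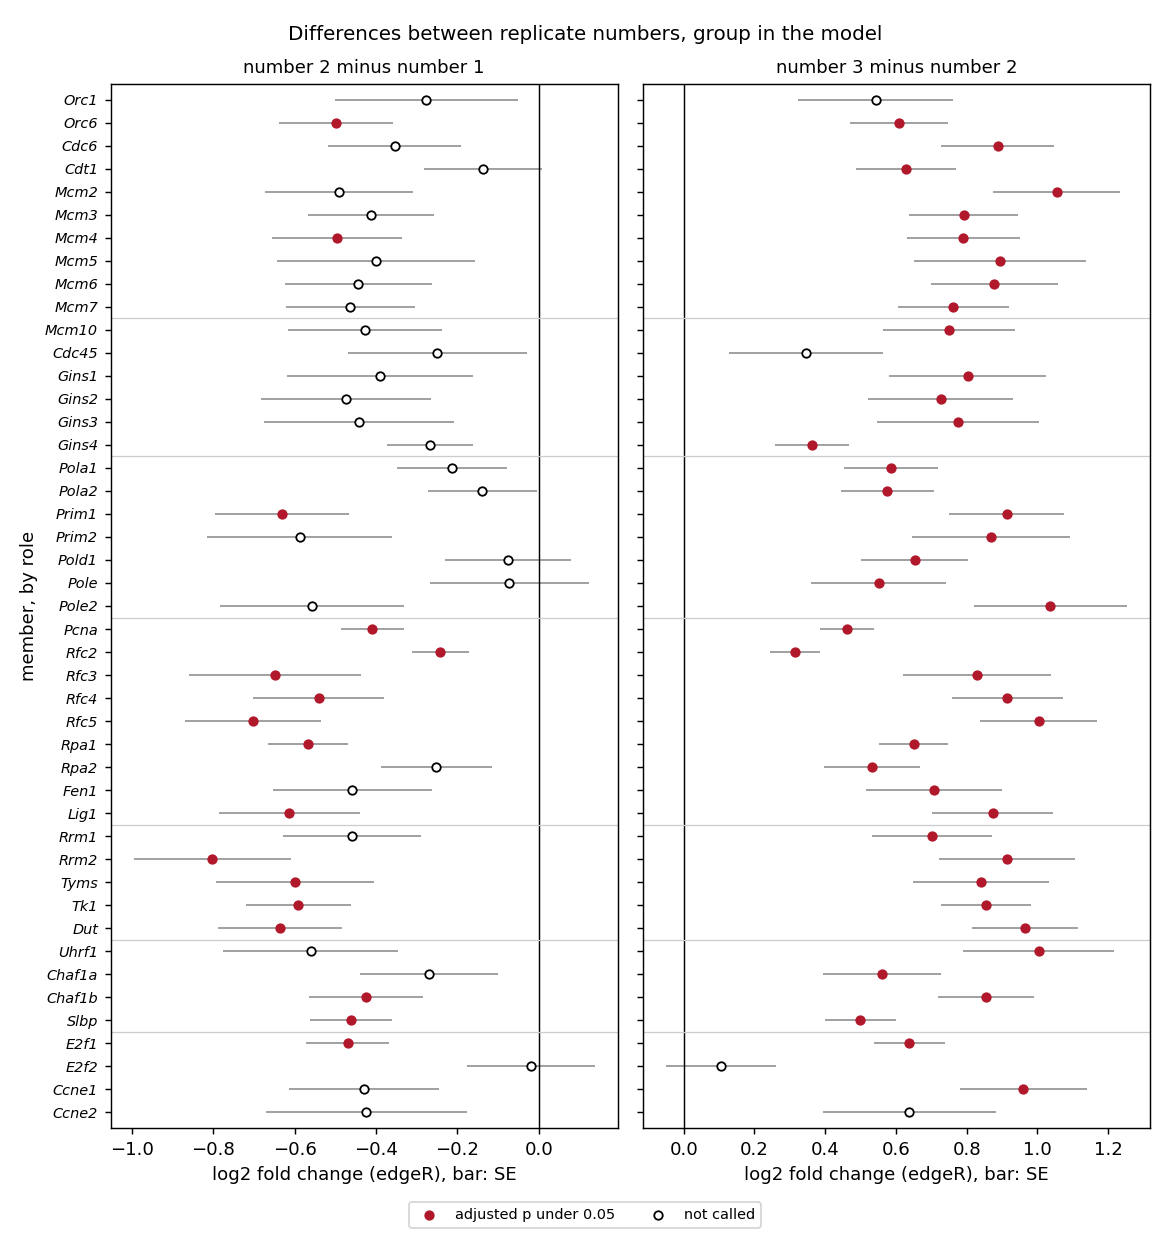
Log2 fold change of each member between replicate numbers in edgeR with the group in the model (points, filled where the adjusted p was under 0.05, bars give the SE). For number 2 minus 1 the 17 filled points lie between -0.24 and -0.80, and for number 3 minus 2 the 41 filled points lie between 0.31 and 1.06.

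Among the 10 genes of origin recognition and licensing, 9 rose from number 2 to 3, 2 fell from number 1 to 2 and 3 rose from number 1 to 3. Mcm2, a subunit of the helicase ring, was at 120, 133, 164 and 129 CPM in number 1 (empty vector, fusion control, shNizp1#1, shNizp1#2), at 124, 113, 68.4 and 84.1 in number 2 and at 218, 176, 217 and 196 in number 3. The 4 libraries numbered 3 stood above all others, and the 2 lowest were the shNizp1 libraries numbered 2. Its log2 fold change from number 2 to 3 was 1.06 (SE 0.18, adjusted p = 0.00117), the largest of the 45. Cdc6, the loader of the Mcm ring, was at 24.5, 31.1, 32.4 and 29.4 CPM in number 1, at 28.1, 28.0, 19.0 and 17.2 in number 2 and at 39.1, 41.8, 51.4 and 37.7 in number 3, rising by 0.89 from number 2 to 3 (SE 0.16, adjusted p = 5.03e-04). Orc6, a subunit of the origin recognition complex, and Mcm4 were the genes that fell from number 1 to 2 (-0.50 for each, adjusted p = 0.0191 and 0.0441). Orc1 missed the threshold from number 2 to 3 (0.54, SE 0.22, adjusted p = 0.0522): its highest libraries were the empty vector numbered 2, at 17.2 CPM, and numbered 3, at 16.7.

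Of the 6 genes of helicase activation, 5 rose from number 2 to 3 and 0 were called between numbers 1 and 2 or 1 and 3. Gins1, Gins2, Gins3 and Gins4, the subunits of the GINS complex, rose by 0.80, 0.73, 0.78 and 0.36 in log2 (adjusted p between 0.00813 and 0.0118), and Mcm10 by 0.75. Cdc45 was not called (0.35, SE 0.22, adjusted p = 0.212). It was at 36.7 to 41.8 CPM in number 1 and 38.7 to 48.9 in number 3, and in number 2 at 50 with the empty vector, 40.6 in the fusion control and 22.9 and 23.0 with the shRNAs.

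All 7 genes of primase and polymerases rose from number 2 to 3, with log2 fold changes from 0.55 for Pole to 1.04 for Pole2. Prim1, the catalytic subunit of primase, was the member of this role that fell from number 1 to 2 (-0.63, SE 0.16, adjusted p = 0.0143). It was at 37.4, 46.4, 47.3 and 37.8 CPM in number 1 and at 36.1, 31.1, 22 and 20.3 in number 2, with no overlap. From number 2 to 3 it rose by 0.91 (SE 0.16, adjusted p = 5.70e-04). Pold1, the catalytic subunit of polymerase delta, and Pola2 were higher in number 3 than in number 1 (0.58 and 0.44, adjusted p = 0.0167 and 0.0255).

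The sliding clamp, its loader and strand maturation factors held 7 of the 17 genes that fell from number 1 to 2, and all 9 rose from number 2 to 3. Pcna was at 280, 270, 252 and 245 CPM in number 1, at 226, 212, 169 and 184 in number 2 and at 271, 276, 271 and 265 in number 3. The libraries numbered 2 were the lowest in all 4 groups, and numbers 1 and 3 overlapped. The log2 difference of Pcna was -0.41 from number 1 to 2 (SE 0.078, adjusted p = 0.00218) and 0.46 from number 2 to 3 (SE 0.078, adjusted p = 3.04e-04). Rpa1, the large subunit of the single-strand binding complex, was at 241, 257, 265 and 236 CPM, then at 213, 171, 160 and 136, and then at 279, 248, 268 and 262, and had the smallest p of the members in both comparisons (-0.57 and 0.65, adjusted p = 0.00121 and 1.25e-04). Rfc5 fell by 0.70 in log2 and rose by 1.00, Rfc4 fell by 0.54 and rose by 0.91, and Lig1, the ligase that joins Okazaki fragments, fell by 0.61 and rose by 0.87. Rfc2 had the smallest range of the 45, with its highest library at 1.39 times its lowest (median member 2.84, highest Pole2 at 3.84). It overlaps the antisense gene Lat2 over 19.1% of its length, and Lat2 averaged 1095 CPM. As the strand setting of the counting is not given, reads of Lat2 may stand in the Rfc2 value, which is uncertain.

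Of the 5 genes of nucleotide supply, 4 fell from number 1 to 2 and all 5 rose from number 2 to 3. Rrm2 had the largest fall of the 45, -0.80 (SE 0.19, adjusted p = 0.0171), followed by a rise of 0.91 (adjusted p = 0.00426). It was at 169, 169, 192 and 182 CPM in number 1, at 144, 123, 73.1 and 75.9 in number 2 and at 191, 187, 210 and 183 in number 3. All 4 libraries numbered 2 were below all others, and the 2 with an shRNA against Nizp1 were lowest. Dut, which breaks down dUTP, Tk1, the thymidine kinase of S phase, and Tyms, which makes dTMP, fell by 0.64, 0.59 and 0.60 and rose by 0.96, 0.86 and 0.84.

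**Figure D4:**
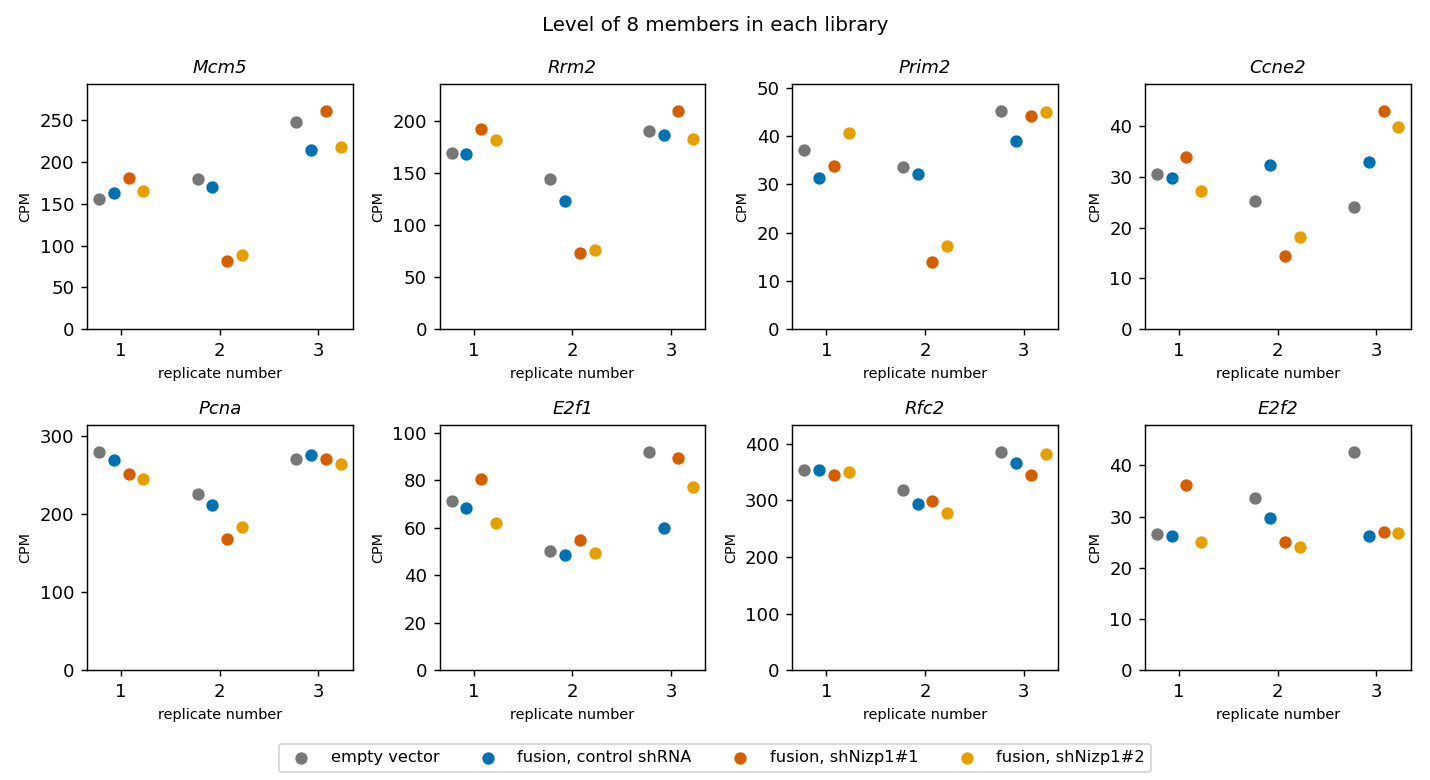
CPM of 8 members in each library, by replicate number (x axis) and group (colour). Mcm5, Rrm2, Prim2 and Ccne2 are lowest in the shNizp1 libraries numbered 2, E2f1 is low in all 4 libraries numbered 2, Pcna and Rfc2 vary less, and E2f2 is highest in the empty-vector library numbered 3, at 42.6 CPM.

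All 4 genes of chromatin assembly and maintenance rose from number 2 to 3: Uhrf1, which guides DNA methylation onto new strands, by 1.00, Chaf1b by 0.85, Chaf1a by 0.56 and Slbp, the histone mRNA binding protein, by 0.50. Chaf1b and Slbp had fallen from number 1 to 2 (-0.42 and -0.46, adjusted p = 0.0380 and 0.00493). In the E2F and cyclin E role, E2f1 and Ccne1 rose from number 2 to 3 (0.64 and 0.96, adjusted p = 1.83e-04 and 6.93e-04), and E2f1 had fallen from number 1 to 2 (-0.47, SE 0.10, adjusted p = 0.00468). E2f1 was low in number 2 in every group, at 48.5 to 54.7 CPM against 62 to 80.6 in number 1, and was the one member whose lowest library, the fusion control numbered 2, was not an shNizp1 library. E2f2 was not called in any of these comparisons (0.11 from number 2 to 3, SE 0.15, adjusted p = 0.597). Ccne2, the second cyclin E, missed the threshold (0.64, SE 0.24, adjusted p = 0.0519).

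The low values of number 2 sat mostly in 2 libraries. Of the 45 members, 27 had their lowest value in shNizp1#1 numbered 2 and 17 in shNizp1#2 numbered 2, and in both libraries all 45 lay below their own mean over the 12 libraries. The median relative level was -0.77 and -0.70 in these libraries, 0.039 in the empty-vector library numbered 2 and -0.20 in the fusion control numbered 2. The median member differed from number 1 to 2 by 0.032 with the empty vector, -0.24 in the fusion control, -0.98 with shNizp1#1 and -0.70 with shNizp1#2. It differed from number 2 to 3 by 0.40, 0.38, 1.22 and 1.01. The first of the 2 libraries had the fewest counts of the 12 (3586538) and the second 6454564. They also had the 2 highest sums of monocyte markers, 3430 and 3637 CPM, against 1997 and 2749 in the other two libraries numbered 2. Their neutrophil sums were 856 and 1630 against 1633 and 1581 CPM, and their mast cell sums 51143 and 47520 against 59057 and 54271. The part of these cells and of depth in the result was not tested.

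The comparisons between numbers depended on these libraries. Without both of them, 2 members were called from number 1 to 2 (median -0.085), 27 from number 1 to 3 (median 0.29) and 24 from number 2 to 3 (median 0.38). Calls over all tested genes moved too in this fit: 3.62% were lower from number 1 to 2 (12.6% with all libraries), 13.1% higher from number 1 to 3 (10.3%) and 9.79% higher from number 2 to 3 (24.2%). Leaving out one library at a time, the calls from number 2 to 3 ran from 33 (without shNizp1#2 numbered 2, where 15.5% of tested genes were called higher) to 44 (without the empty vector numbered 2, 23.3%). Those from number 1 to 2 ran from 5 (without shNizp1#2 numbered 2, 4.66% of tested genes called lower) to 26 (without the empty vector numbered 2, 13%). They were 7 without shNizp1#1 numbered 1 or shNizp1#2 numbered 1 (6.08% and 6.23% called lower). Without shNizp1#1 numbered 2 or the fusion control numbered 1 they were 10 (8.82% and 7.86%). For number 3 against 1 they ran from 0 (without the empty vector numbered 1, or shNizp1#1 numbered 3, with 6.7% and 6.6% of tested genes called higher) to 10 (without shNizp1#1 numbered 1, 8.57%). It was 1 without shNizp1#2 numbered 3 (4.91% called higher) and 2 without the fusion control numbered 1 (6.55%).

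A model with separate number effects for the 6 targeting-shRNA and the 6 control-shRNA libraries, chosen after these values were seen, tested whether the numbers differed in their effect. All targeting-shRNA libraries carried the fusion, while the control-shRNA libraries were of both the empty vector and the fusion control. The difference therefore partly holds that between fusion and empty vector, which this model cannot tell apart from the shRNA. From number 1 to 2 the median member differed by 0.032 with the empty vector and -0.24 in the fusion control. From number 1 to 2, 13 members moved further down with a targeting than with a control shRNA and 0 further up (0.975% of tested genes lower and 1.08% in either direction), with a median difference of -0.77 against -0.021 over all tested genes. From number 2 to 3, 12 members moved further up (0.45% higher and 0.5% in either direction, median 0.69 against 0.051), of which 10 were among the 13. The 12 were 3 with RLE scaling, 5 with upper-quartile scaling, 5 with DESeq2 and 0 with limma-voom (0.142%, 0.233%, 0.233% and 0.0167% of tested genes called higher). The 13 were 10, 10, 6 and 10 in the same order (0.5%, 0.459%, 0.434% and 0.725% of tested genes called lower). For number 3 against 1 it was 0 members (0.0167% in either direction), with 2 at an unadjusted p under 0.05. Mcm5, a subunit of the helicase ring, was at 156, 163, 182 and 166 CPM in number 1, at 179, 170, 82.1 and 89.3 in number 2 and at 248, 214, 261 and 218 in number 3. Its 2 control-shRNA libraries did not fall from number 1 to 2, and both targeting-shRNA libraries were at about the same low level. The difference was -1.13 from number 1 to 2 (SE 0.16, adjusted p = 0.00463) and 1.06 from number 2 to 3 (SE 0.16, adjusted p = 0.0167). Prim2, the large primase subunit, was at 37.1, 31.3, 33.8 and 40.6 CPM, then at 33.6, 32.1, 14.0 and 17.3, and then at 45.2, 38.9, 44.0 and 44.9, with differences of -1.19 (SE 0.22, adjusted p = 0.0220) and 1.15 (SE 0.22, adjusted p = 0.0356). Rrm2 differed by -0.98 (adjusted p = 0.00831) and 0.89 (adjusted p = 0.0273).

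The other genes called in both were Mcm6, Cdc45, Pole, Lig1, Rrm1, Tyms and Uhrf1, with differences from -1.10 to -0.84 and from 0.76 to 1.06. Mcm7, Rfc5 and Chaf1a were called from number 1 to 2 alone, and Mcm4 and Ccne2 from number 2 to 3 alone, without a test of that contrast between the steps. E2f1 differed by 0.055 (SE 0.20, adjusted p = 0.946), Pcna by -0.17 (SE 0.14, adjusted p = 0.671) and Rfc2 by -0.061 (SE 0.15, adjusted p = 0.907) from number 1 to 2. Among the control-shRNA libraries alone, 4 members fell from number 1 to 2 (E2f1, Rpa1, Pcna and Rrm2) and 0 rose, where 4.53% of tested genes were called lower and 7.23% higher. In these libraries 16 members rose from number 1 to 3 (6.18% called higher) and 24 from number 2 to 3 (9.8%). Among the targeting-shRNA libraries 37 fell from number 1 to 2 (12.6% called lower), 9 rose from number 1 to 3 (5.16% called higher) and 44 rose from number 2 to 3 (22.2%). The interaction rested on few libraries: without any one of shNizp1#1 numbered 1, shNizp1#1 numbered 2 and shNizp1#2 numbered 1, 0 members were called from number 1 to 2, and 0 from number 2 to 3 without shNizp1#1 numbered 2 or 3. It was called for 2 members without the empty vector numbered 1 (number 1 to 2, 0.452% of tested genes called lower). From number 2 to 3 it was called for 2, 3 and 2 without the empty vector numbered 2 or 3 or shNizp1#2 numbered 2 (0.34%, 0.202% and 0.116% called higher). In the step to number 2 it was 7 without the empty vector numbered 2 and 6 without shNizp1#2 numbered 2 (0.98% and 0.323% called lower). In the step to number 3 it was 6 without shNizp1#2 numbered 3 (0.551% called higher). In the fits that called 0 members, at most 0.114% of all tested genes were called lower from number 1 to 2 and at most 0.00825% higher from number 2 to 3.

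Lists of related genes were set beside the members. Of 43 other genes of the replication machinery, such as Tipin of the fork protection complex and Atad5, which unloads the clamp, 26 rose and 1 fell from number 2 to 3 (median 0.49), and 7 fell and 0 rose from number 1 to 2. These were 60.5% of the list against 24.2% of all tested genes called higher, and 16.3% against 12.6% called lower, the latter near the background. Tipin was at 63.3 to 76.5 CPM in number 1, 33.1 to 55.5 in number 2 and 80.9 to 95.1 in number 3. Of 22 mitosis genes, 17 rose and 0 fell from number 2 to 3 (median 0.56), and 11 fell and 0 rose from number 1 to 2 (median -0.47). From number 1 to 3, 0 rose and 2 fell (Kif23 and Cenpa), with a median of 0.050. There 10.3% of all tested genes were called higher and 15.9% lower. The 17 and 11 were 77.3% and 50% of the list against 24.2% and 12.6% of all tested genes. Their summed level was 2591 to 2739 CPM in number 1, 1557 and 1683 with the shRNAs against Nizp1 and 2381 and 2845 with the control shRNA in number 2, and 2603 to 3030 in number 3. In the model with separate number effects, 9 of the 22 mitosis genes and 7 of the 43 replication genes moved further down from number 1 to 2 with a targeting shRNA, and 3 and 2 further up from number 2 to 3, where 0.975% and 0.45% of all tested genes were called in these directions. No gene of either list was called in a comparison of groups by the block fit (0 of 43 and 0 of 22).

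Of 24 genes of E2F, RB and S phase control, 11 rose and 4 fell from number 2 to 3, and 1 rose and 7 fell from number 1 to 2. From number 2 to 3 the shares were 45.8% higher and 16.7% lower, against 24.2% and 25.4% of all tested genes, and from number 1 to 2 they were 4.17% and 29.2%, against 13.4% and 12.6%. The one that rose was Cdkn1b, which encodes p27, an inhibitor of cyclin E and CDK2. Cdkn1b was at 99.4, 104, 94.0 and 148 CPM in number 1, at 124, 174, 176 and 222 in number 2 and at 46.7, 65.9, 69.9 and 73.2 in number 3. It was higher in number 2 than in number 1 and lowest in number 3 in every group, and the libraries numbered 3 were below all others. Its log2 fold changes were 0.63 from number 1 to 2 (SE 0.10, adjusted p = 7.88e-04), -1.43 from number 2 to 3 (SE 0.10, adjusted p = 2.07e-07) and -0.80 from number 1 to 3 (SE 0.10, adjusted p = 1.14e-04). Tfdp1, the DNA-binding partner of E2F factors, rose by 0.56 from number 2 to 3. From number 1 to 3, 3 of the 24 genes rose and 5 fell, where 10.3% of all tested genes were called higher and 15.9% lower. In the comparisons between groups, Cdkn2d, an inhibitor of CDK4 and CDK6, was lower with the fusion (-0.54, SE 0.10, adjusted p = 0.0351), at 98.7, 83.3 and 77.5 against 78.2, 56.5 and 46.9 CPM, and Tfdp2 was lower with shNizp1#2 than with shNizp1#1 (-0.57, SE 0.14, adjusted p = 0.0442). Both calls are of the block fit, and the model without the block called neither (unadjusted p = 0.0549 for Cdkn2d and 0.0529 for Tfdp2).

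**Figure D5:**
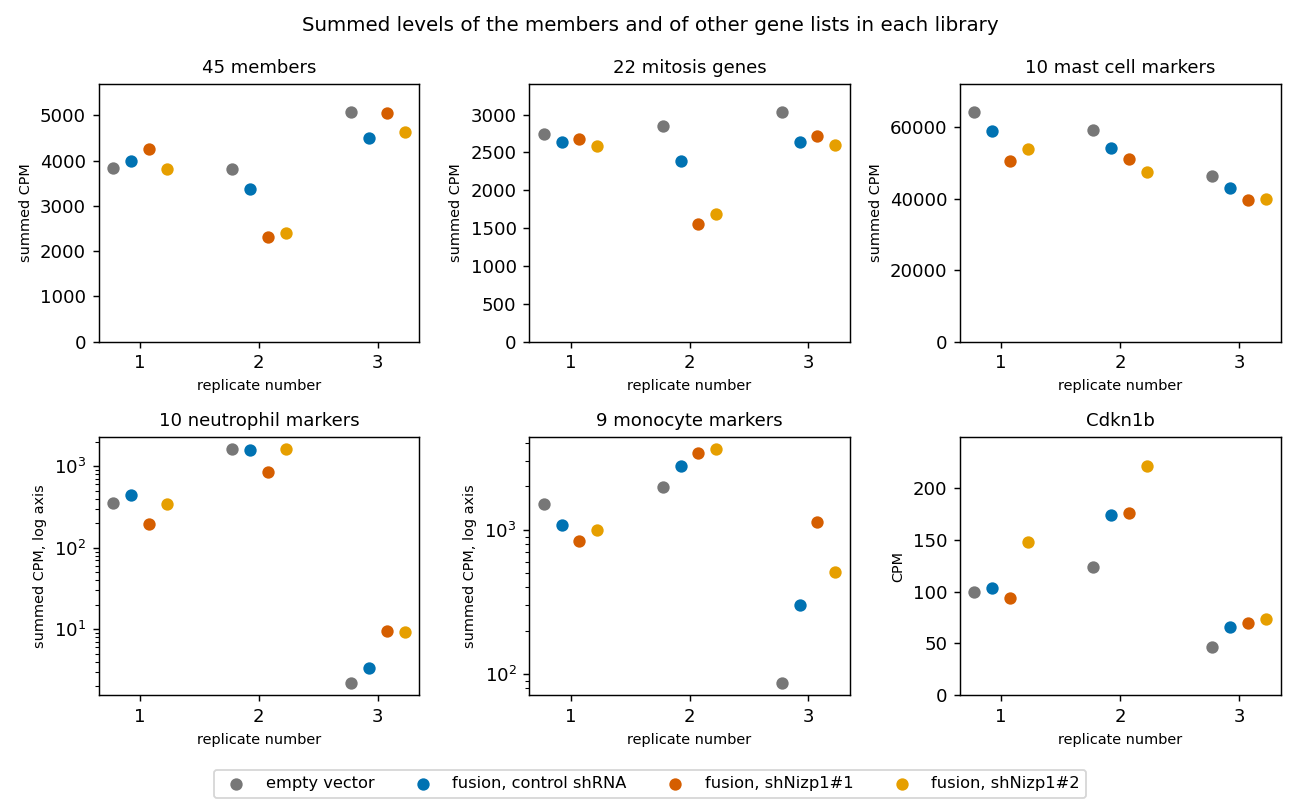
Summed CPM of the 45 members, the 22 mitosis genes and 3 lists of cell type markers, and CPM of Cdkn1b, in each library by replicate number and group (log axis for the neutrophil and monocyte markers). Members and mitosis genes are lowest in the shNizp1 libraries numbered 2, neutrophil markers fall to 2.17 to 9.58 CPM in number 3, and Cdkn1b is lowest in number 3.

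As the members moved together, their promoters were searched for E2F letters. RefSeq's table for GRCm38.p6 (the mm10 build of the counts) held windows of 300 bases, 250 before to 50 after a start, for 37 of the 45 genes. The letters TTTCCCGC, TTTGGCGC, TTTCGCGC and TTTGCCGC, on either strand, stood in a window of 15 of the 37 (40.5%), against 4.82% of 9223 tested genes and 2.6% of 27025 genes in the table. They were not particular to the members: of the other genes of the replication machinery, 9 of the 35 with a window held them (25.7%). The median G and C content of the windows was 60.2% for the members, 60.7% for tested genes and 52.8% for the table. Of the 18 mitosis genes with a window, 5.56% held these letters, while TTTGAA or TTCGAA, the letters of the CHR element of G2 and M phase genes, stood in 72.2% of them, 18.9% of the members and 16.5% of tested genes. CCAAT, on either strand, stood in 59.5% of the members and 43.5% of tested genes. The 250 bases before the start are shown for 3 genes with such letters that differed between targeting and control shRNA. They are Mcm5 (chr8:75109259-75109508, plus strand), Mcm6 (chr1:128359706-128359955, minus strand) and Uhrf1 (chr17:56304063-56304312, plus strand, 1 of its windows). The same stretch is shown for 2 genes without such letters. Rrm2 (chr12:24708004-24708253, plus strand) had the largest fall from number 1 to 2 and also differed between targeting and control shRNA. Mcm2 (chr6:88898781-88899030, minus strand) had the largest rise from number 2 to 3 and was not called in that test. Each stretch reads 5′ to 3′ on the gene's strand, and capitals mark E2F letters on either strand, overlapping matches run together.
Mcm5: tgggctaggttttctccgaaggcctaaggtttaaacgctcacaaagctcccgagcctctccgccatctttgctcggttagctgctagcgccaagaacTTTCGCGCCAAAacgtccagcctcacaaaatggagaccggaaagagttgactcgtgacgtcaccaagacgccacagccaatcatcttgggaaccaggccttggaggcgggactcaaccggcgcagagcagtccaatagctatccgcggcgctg
Mcm6: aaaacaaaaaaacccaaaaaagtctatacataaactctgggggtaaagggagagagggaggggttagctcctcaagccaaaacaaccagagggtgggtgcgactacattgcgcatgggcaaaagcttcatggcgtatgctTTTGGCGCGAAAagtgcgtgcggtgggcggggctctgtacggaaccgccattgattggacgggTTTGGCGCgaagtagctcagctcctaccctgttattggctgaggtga
Uhrf1: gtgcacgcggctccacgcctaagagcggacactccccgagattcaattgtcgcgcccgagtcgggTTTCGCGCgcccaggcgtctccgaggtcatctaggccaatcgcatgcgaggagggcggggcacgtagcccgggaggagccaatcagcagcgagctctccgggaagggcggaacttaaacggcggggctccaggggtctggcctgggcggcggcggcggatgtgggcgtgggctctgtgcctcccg
Rrm2: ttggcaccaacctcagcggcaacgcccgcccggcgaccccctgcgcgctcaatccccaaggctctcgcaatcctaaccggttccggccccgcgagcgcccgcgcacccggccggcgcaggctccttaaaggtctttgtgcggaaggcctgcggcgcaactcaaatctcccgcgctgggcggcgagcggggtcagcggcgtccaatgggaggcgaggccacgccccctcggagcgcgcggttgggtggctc
Mcm2: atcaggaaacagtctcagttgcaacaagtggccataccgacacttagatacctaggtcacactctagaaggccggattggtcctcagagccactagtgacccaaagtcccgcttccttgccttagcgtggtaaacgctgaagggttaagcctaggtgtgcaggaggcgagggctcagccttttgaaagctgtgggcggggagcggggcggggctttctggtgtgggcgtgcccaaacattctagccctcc

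In Mcm5 and Mcm6 a match on one strand ran into a match on the other, which in Mcm5 began at -153 from the start, and Mcm6 held a further match nearer its start. Uhrf1 held one at -185. Rrm2 and Mcm2 held none in their windows. Of the 13 members that differed between targeting and control shRNA from number 1 to 2, Mcm5, Mcm6, Mcm7, Lig1 and Uhrf1 held a match. Cdc45, Chaf1a, Rfc5, Rrm1, Rrm2 and Tyms held none, and Prim2 and Pole had no window. The median log2 fold change from number 2 to 3 was 0.79 in the 15 members with a match (range 0.11 to 1.04) and 0.73 in the 22 without (range 0.35 to 1.06). E2f2, the member with the smallest change, held a match 40 bases after its start. A match is a description of these windows and not a measured site.

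Without the strand setting, some other member values are uncertain too. Exons of Gins2 overlap those of the antisense gene Gse1 over 70.7% of its length (Gse1 at 168 CPM), those of Fen1 overlap Gm10143 over 78.8% (1.62 CPM) and Tmem258 over 5.37% (68.8 CPM), and those of Chaf1a overlap Ubxn6 over 33.6% (61.96 CPM). Rfc4 shares 13.4% of its length with Eif4a2 (218 CPM), Rfc5 15.4% with Wsb2 (61.5 CPM) and Mcm7 10.8% with Ap4m1 (33.7 CPM). Orc6 shares 7.14% with Vps35 (258.9 CPM). Ccne2, Slbp, Orc1, Cdc45, Pole, Lig1 and Tk1 overlap an antisense gene over at most 14.4% of their length. The processed copies Pcna-ps2 and Tyms-ps had 0.67 and 0.053 CPM.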

How the data were processed

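RNA from 12 libraries was analysed. Per the labels' protocols, 1 µg of RNA went into each stranded TruSeq poly(A) library, sequenced from one end over 75 nt. The deposited values are whole-number read counts per gene. Per the submitters' processing notes the authors trimmed reads with Trimmomatic 0.32, aligned them with STAR 2.5.3a to mm10 and counted them with featureCounts, whose strand setting, annotation and version the sources used here do not give. Without the strand setting, reads of antisense genes may not have been told apart.

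Genes were filtered and scaled (TMM) in edgeR 4.0.16 with R 4.3.3 and tested with its robust quasi-likelihood test on all 12 libraries, with Benjamini-Hochberg adjustment over the 11994 tested genes and a threshold of 0.05. Totals ran from 3586538 to 6842589 counts, and 3 counts equal 0.417 to 0.837 CPM, which covers counting error only, since reads carry no molecular identifiers. SEs were derived from the F statistic. Groups came from the titles. The main model for groups had 1 mean per group. The replicate number was added as a block because libraries sharing a number deviated together: after removal of group means, the 18 same-number pairs had a median r of 0.738 (from 0.223 to 0.877), while the other pairs had a median of -0.196, and 12 of 12 libraries correlated best with their own number. Comparisons between numbers used the model of group and number. The labels name no animals, so a p-value here measures only how these libraries spread, which may be technical. No 2 libraries of a group were alike to within counting noise.

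Named genes follow a rule: up to 12 called members with the smallest p per comparison, otherwise the 3 with the smallest p, and called genes of 3 related lists. Other members are named to show each role, chosen after their values were seen. The members and lists were chosen with earlier results of these data known. Differences within numbers use log2(CPM + 1). Alternatives were RLE and upper-quartile scaling, no filter, DESeq2 1.42.0, limma-voom (limma 3.58.1), leaving out each library and, chosen after seeing the data, leaving out both shNizp1 libraries numbered 2 and a model of targeting shRNA by number.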

Additional observations from a re-analysis of the deposited data

Results flagged for a closer look

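Effects of the replicate number that differed between the targeting-shRNA and the control-shRNA libraries drew attention, by a test of the difference itself in edgeR with terms for shRNA by number. This model was chosen after the values were seen. Its control-shRNA libraries were of the empty vector and the fusion control, while all its targeting-shRNA libraries carried the fusion. From number 1 to 2 the difference was called for 13 members: Prim2 (-1.19), Mcm5 (-1.13), Cdc45 (-1.10), Pole (-1.02), Uhrf1 (-1.01), Rrm2 (-0.98), Mcm6 (-0.91), Tyms (-0.91), Chaf1a (-0.90), Lig1 (-0.88), Rfc5 (-0.87), Rrm1 (-0.84) and Mcm7 (-0.79), in log2. From number 2 to 3 it was called for 12 members: Ccne2 (1.33), Prim2 (1.15), Mcm5 (1.06), Cdc45 (1.06), Tyms (0.97), Pole (0.97), Uhrf1 (0.92), Rrm2 (0.89), Lig1 (0.84), Mcm4 (0.83), Mcm6 (0.78) and Rrm1 (0.76). The 12 calls of this step became 3 with RLE and 5 with upper-quartile scaling. Both sets share the libraries numbered 2.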

How the results depend on the processing

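In the block fit the SE of a member's log2 difference between groups ran from 0.081 (Rfc2) to 0.281 (Ccne2). The count of called members was 0 in all 4 group comparisons with and without the replicate block, under each scaling, DESeq2 and limma-voom, the exception being 1 member (Pole) with shNizp1#1 in the block fit with no filter. Apart from that fit, the block changed no call of a member in these settings.

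Calls between numbers went from 17 to 30 (number 1 to 2) and from 7 to 20 (number 1 to 3) with no filter, and from 7 to 11 with DESeq2 (number 1 to 3). With no filter, 6.84% of tested genes were called lower (12.6% in the main fit) and 5.97% higher (10.3%) in these comparisons. With DESeq2, 8% were called higher from number 1 to 3. Without the shNizp1 libraries numbered 2 the members called were 2, 27 and 24 (number 1 to 2, 1 to 3 and 2 to 3). The differences between targeting and control shRNA were called for 24 members with no filter and 6 with DESeq2 in place of 13 (number 1 to 2). Of tested genes, 1.55% and 0.434% were called lower there, against 0.975%. From number 2 to 3 it was 3 with RLE scaling, 5 with upper-quartile scaling, 25 with no filter, 5 with DESeq2 and 0 with limma-voom in place of 12. Of tested genes, 0.142%, 0.233%, 1.39%, 0.233% and 0.0167% were called higher in these fits, against 0.45%. With each library left out in turn, calls ran from 5 to 26 (number 1 to 2) and from 0 to 10 (number 1 to 3), and those of the differences from 0 to 18 and from 0 to 12, with a median difference from 0.60 to 0.83 (number 2 to 3). In the fits with 18 and 12 members, 1.46% of tested genes were called lower and 1.13% higher. The members' median ran from -0.24 to 0.074 for the fusion with the replicate block, the latter without the empty vector numbered 2. Between the shRNAs it ran from -0.38 to 0.17 without the block and from -0.29 to 0.0045 with it. Pcna with shNizp1#1 ran from -0.26 to 0.052 without the block and was above 0 without shNizp1#1 numbered 2, and Chaf1b with shNizp1#2 ran from -0.50 to 0.0013 and was above 0 without shNizp1#2 numbered 2. The cause was not tested. No scaling moved the median of all genes by more than 0.0418.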
